A study of Mus musculus with 9 samples.

Results

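The 10 genes described here encode calprotectin and the surface receptors, secreted factors and 1 enzyme that mark mature neutrophils. They are S100a8, S100a9, Cxcr1, Cxcr2, Fpr1, Fpr2, Prok2, Trem1, Hdc and Retnlg. They were taken by symbol from the 55359 genes of the deposited table, and all 10 were found and passed the filter on low values. The libraries are of whole lung from male C57BL/6J mice of 6 to 8 weeks, collected on day 28 after an instillation into the trachea. Silica + ATL-III mice were given 5 mg of silica, a mineral dust that scars the lung, and also atractylenolide III (ATL-III), a plant sesquiterpene lactone, in injections into the abdomen (daily dose 30 mg/kg). Silica mice were given 5 mg of silica alone, and Control mice were given saline in its place. The groups held 20 mice each, and 3 libraries per group were analysed. ATL-III was given to no group without silica, and an injection of vehicle is named for no other group, so an action of ATL-III on the silica response and one that it or the injection would have in any lung cannot be told apart. Whether a library came from 1 mouse is not stated in the labels, and the p-values reflect how these samples varied, for whatever reason, technical ones included.

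Neutrophils are short-lived phagocytes that leave the bone marrow mature and enter tissue along chemokine gradients. CXCR2 and its relative CXCR1 sense such chemokines, formyl peptide receptors sense peptides of bacteria and of broken mitochondria, and TREM-1 amplifies the response. The calcium-binding proteins S100A8 and S100A9 pair into calprotectin, which fills neutrophil cytosol, sequesters metal ions and is released during inflammation. In whole lung, fewer cells of a type and less RNA per cell cannot be told apart, and this holds for every level given here.

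Each library held 16047175 to 17792481 counts. Levels are in FPKM (counted reads scaled to exon length and to the library's total), as deposited. A change is given as a log2 fold change ± SE. It was tested on counts with edgeR's quasi-likelihood method over 15459 genes, and a gene counted as called where the p-value after Benjamini-Hochberg adjustment was under 0.05. Each pair of comparisons shares the libraries of 1 group, and the values of each comparison are therefore given side by side without a test of their likeness. Prok2 passed the filter through the 3 Silica + ATL-III libraries alone, so it had to differ there. Cxcr1 passed with 7 libraries at 1 FPKM or more, and the other 8 genes passed with all 9.

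S100a8 with S100a9 and Cxcr1 with Cxcr2 are shown here by the sequence before their starts, since each pair lies side by side on a chromosome and the first pair moved together while the second did not. On the table's positions S100a8 and S100a9 are 22.6 kb apart on chromosome 3 with 0 genes between, and Cxcr2 and Cxcr1 are 30.5 kb apart on chromosome 1 with 0 genes between. Fpr1 and Fpr2 lie 3.88 kb apart on chromosome 17. In each pair the genes are on opposite strands. The stretches below are the 250 bases before the start of the RefSeq gene, 5′ to 3′ on the gene's strand, with coordinates of build GRCm38.p6. Capitals mark letters that matched TTNNGNAA or TTGCNNAA (of the kind bound by C/EBP factors), GAGGAA (of the kind bound by PU.1) or TATAAA (the TATA box), on either strand.
S100a8 (chr3:90668821-90669070, plus strand): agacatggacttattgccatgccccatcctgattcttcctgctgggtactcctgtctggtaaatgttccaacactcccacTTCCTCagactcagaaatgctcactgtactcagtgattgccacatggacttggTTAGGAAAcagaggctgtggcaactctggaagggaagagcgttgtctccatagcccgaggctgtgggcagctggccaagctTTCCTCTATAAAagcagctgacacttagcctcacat
S100a9 (chr3:90695722-90695971, minus strand): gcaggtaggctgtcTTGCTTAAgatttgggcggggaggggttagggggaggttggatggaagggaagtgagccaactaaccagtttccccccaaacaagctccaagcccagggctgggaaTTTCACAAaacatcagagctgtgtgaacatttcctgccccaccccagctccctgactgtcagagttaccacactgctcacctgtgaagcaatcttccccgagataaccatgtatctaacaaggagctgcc
Cxcr1 (chr1:74194632-74194881, minus strand): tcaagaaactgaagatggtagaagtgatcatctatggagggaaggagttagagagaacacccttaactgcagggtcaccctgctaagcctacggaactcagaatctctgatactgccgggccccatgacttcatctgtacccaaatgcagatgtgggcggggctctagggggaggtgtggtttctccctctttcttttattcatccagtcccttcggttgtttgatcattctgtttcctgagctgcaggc
Cxcr2 (chr1:74153744-74153993, plus strand): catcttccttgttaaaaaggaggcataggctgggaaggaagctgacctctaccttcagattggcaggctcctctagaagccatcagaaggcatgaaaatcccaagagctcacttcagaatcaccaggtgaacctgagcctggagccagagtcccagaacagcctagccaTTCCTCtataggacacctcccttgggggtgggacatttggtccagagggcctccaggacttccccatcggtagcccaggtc
In S100a8 a TTCCTC, which is GAGGAA on the other strand, starts 36 bases before the gene's start and runs straight into TATAAA. Both are printed there as 1 run of capitals. S100a9 held TTNNGNAA at 2 places, of which the 1 starting 236 bases before the start also reads TTGCNNAA on the gene's strand. Every TTGCNNAA is a TTNNGNAA on the other strand, so these counts overlap. Cxcr1 held none of the 4 motifs in this window, and Cxcr2 held 1 GAGGAA. All 10 genes had a RefSeq promoter. TTNNGNAA was in 7 of them, against 36.8% of 32851 mouse promoters searched over the same length. TTGCNNAA was in 2 of 10 (9.56% of all), GAGGAA in 4 of 10 (23.3%) and TATAAA in 4 of 10 (12.4%). These are matches of letters, not binding sites.

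In Silica + ATL-III lungs 9 of the 10 genes were called higher than in Silica lungs, all but Cxcr1, and all 10 were called higher than in Control lungs. Prok2 is among the 9 and the 10, though its filter meant that it had to differ there. In Silica lungs Cxcr1 was the 1 gene called higher than in Control. Over all genes tested, edgeR called 11.2% higher and 10% lower in Silica + ATL-III vs Silica (21.2% in either direction). It called 9.14% higher and 6.71% lower in Silica + ATL-III vs Control (15.9%), and 9.11% higher and 7.81% lower in Silica vs Control (16.9%). The median log2 fold change of the 10 genes was 3.25 in Silica + ATL-III vs Silica and 3.65 in Silica + ATL-III vs Control, against -0.000336 and -0.00985 over all genes tested. In Silica vs Control it was 0.35, against -0.01 over all genes tested. Calls over all genes were higher in 53.8% of cases in Silica vs Control and in 57.6% in Silica + ATL-III vs Control. With library totals alone in place of TMM, those shares were 33.0% and 34.6%.

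**Figure D1:**
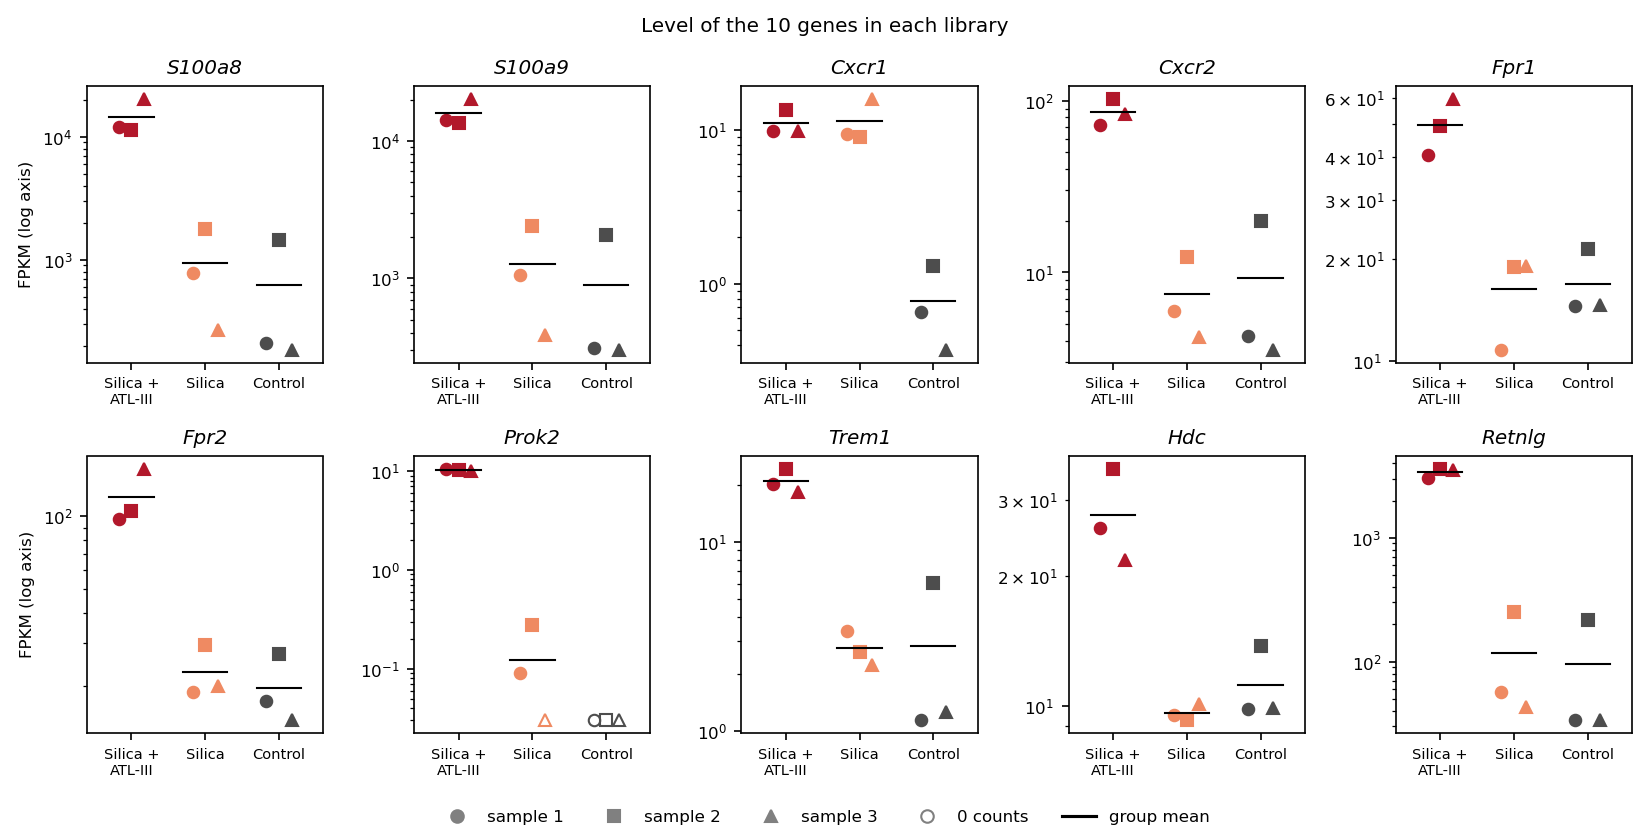
Level of each of the 10 genes in FPKM on a log axis, 1 panel per gene, with the 3 libraries of Silica + ATL-III, Silica and Control as symbols (circle, square and triangle for samples 1, 2 and 3; open symbols for 0 counts, drawn at the foot of the axis) and a bar at the group mean. The Silica + ATL-III libraries lie above the other groups in every panel but Cxcr1, where they lie among the Silica libraries and above the Control libraries.

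The calprotectin genes were the most abundant of the 10. S100a8 (ENSMUSG00000056054) had 11884, 11384 and 20401 FPKM in Silica + ATL-III libraries, 783, 1764 and 267 FPKM in Silica libraries and 209, 1458 and 184 FPKM in Control libraries. S100a9 (ENSMUSG00000056071) had 14144, 13563 and 20371 FPKM in Silica + ATL-III, 1049, 2401 and 385 FPKM in Silica and 310, 2079 and 301 FPKM in Control. Every Silica + ATL-III library was above every other library for both genes, whereas Silica and Control overlapped, with Silica 2 and Control 2 the highest of their groups. Ranked by mean FPKM among all genes, S100a9 and S100a8 were the 3rd and 4th gene in Silica + ATL-III, the 24th and 39th in Silica and the 28th and 48th in Control. Together they held 1.56%, 1.5% and 2.48% of all counts in the Silica + ATL-III libraries. That share was 0.109%, 0.248% and 0.0386% in Silica and 0.0307%, 0.210% and 0.0285% in Control.

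By edgeR, S100a8 was higher in Silica + ATL-III than in Silica by 3.99 ± 0.84 (adjusted p = 0.0067) and than in Control by 4.69 ± 0.87 (adjusted p = 0.0036). S100a9 was higher than in Silica by 3.68 ± 0.79 (adjusted p = 0.0074) and than in Control by 4.29 ± 0.81 (adjusted p = 0.0041). Neither was called in Silica vs Control, where S100a8 had a log2 fold change of 0.70 ± 0.75 (adjusted p = 0.54) and S100a9 of 0.61 ± 0.72 (adjusted p = 0.58). Both values move with single libraries. Without Control 2 S100a8 was called higher in Silica (2.33, adjusted p = 0.045) and so was S100a9 (2.15, adjusted p = 0.047). EdgeR without a filter on low values also called both (0.71 and 0.62, adjusted p = 0.00087 and 0.0045). Without Silica 2 both were slightly negative and not called (-0.09 for S100a8, adjusted p = 0.95, and -0.18 for S100a9, adjusted p = 0.88). Among the other S100 genes and the receptors that calprotectin is known to bind, edgeR called 0 of 16 tested higher in Silica + ATL-III vs Silica (1 at an unadjusted p under 0.05, and 0 by DESeq2 and by limma) and 4 lower. These were S100a1, S100a14, S100b and S100g, of which S100g, an intracellular calcium carrier, had 167 ± 36.4 FPKM in Silica + ATL-III and 405 ± 74.4 FPKM in Silica (SD, n = 3 each; log2 fold change -1.26 ± 0.19). S100b lost its call when Silica 1, Silica 3 or any 1 of the Silica + ATL-III libraries was left out. The median of the 16 was -0.18, against -0.000336 over all genes tested. Of the same 16, 6 were called higher in Silica vs Control, or 3 without Control 3, with a median of 0.42. In Silica + ATL-III vs Control 4 were called higher, or 1 without Control 2 or Control 3, with a median of 0.11. Tlr4, a receptor of calprotectin, had 9.99 ± 0.118 FPKM in Silica + ATL-III, 8.57 ± 0.647 FPKM in Silica and 7.12 ± 0.931 FPKM in Control. Ager, the receptor RAGE and also a marker of alveolar type 1 cells, had 670 ± 101 FPKM in Silica + ATL-III, 720 ± 210 FPKM in Silica and 578 ± 17.5 FPKM in Control, and was called in none of the comparisons.

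The 2 chemokine receptor genes moved differently. Cxcr2 (ENSMUSG00000026180), whose product binds CXC chemokines such as CXCL1, CXCL2 and CXCL5, had 71.8, 103 and 84.0 FPKM in Silica + ATL-III, 5.96, 12.4 and 4.22 FPKM in Silica and 4.25, 20.0 and 3.54 FPKM in Control. Cxcr1 (ENSMUSG00000048480), which encodes the related receptor, had 9.88, 13.6 and 9.83 FPKM in Silica + ATL-III, 9.44, 9.09 and 16.1 FPKM in Silica and 0.65, 1.30 and 0.37 FPKM in Control. For Cxcr2 all 3 Silica + ATL-III values were above the other 6 and Silica overlapped Control. For Cxcr1 both silica-exposed groups stood apart from Control and overlapped each other.

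Cxcr2 was higher in Silica + ATL-III than in Silica by 3.55 ± 0.59 (edgeR adjusted p = 0.0018) and than in Control by 3.34 ± 0.58 (adjusted p = 0.0024). Its change in Silica vs Control was -0.21 ± 0.55 (adjusted p = 0.82), and 1.03 without Control 2 (adjusted p = 0.097). Cxcr1 was higher in Silica than in Control by 3.99 ± 0.36 (adjusted p = 0.00012), and in Silica + ATL-III than in Control by 3.96 ± 0.36 (adjusted p = 3.7e-05). Its change in Silica + ATL-III vs Silica was -0.04 ± 0.28 (adjusted p = 0.94), and ran from -0.20 to 0.27 when single libraries were left out. Cxcr1 counts were low, at 821 reads in the 3 Silica + ATL-III libraries together, 899 in Silica and 56 in Control.

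The ratio of the 2 receptors within a library does not depend on how libraries are scaled. Cxcr1 over Cxcr2 was 0.138, 0.132 and 0.117 in Silica + ATL-III, 1.58, 0.736 and 3.81 in Silica and 0.153, 0.065 and 0.105 in Control. On the log2 scale the mean was -2.95 ± 0.121 in Silica + ATL-III, 0.71 ± 1.18 in Silica and -3.20 ± 0.644 in Control (SD, n = 3 each, with 0.05 FPKM added to both genes). The ratio in Silica lay above both other groups with no overlap. The log2 difference was 3.91 for Silica vs Control and -3.66 for Silica + ATL-III vs Silica. Each had a two-sided exact permutation p of 0.1, which is the smallest that 3 against 3 libraries allow (0.15 after Benjamini-Hochberg adjustment over 9 such tests). Silica + ATL-III and Control differed by 0.25 (exact permutation p = 0.7, adjusted 0.7), and their libraries overlapped.

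**Figure D2:**
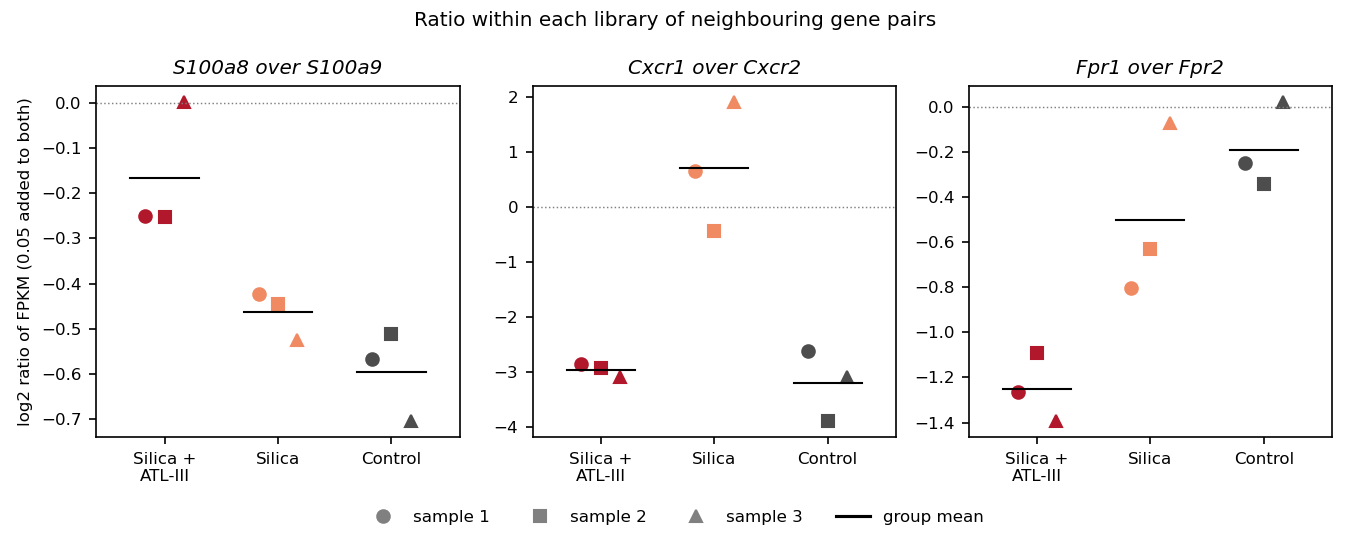
Ratio of 2 neighbouring genes within each library, as the log2 of the FPKM ratio with 0.05 FPKM added to both, for S100a8 over S100a9, Cxcr1 over Cxcr2 and Fpr1 over Fpr2; symbols are the 3 libraries of Silica + ATL-III, Silica and Control, and bars are group means. Cxcr1 over Cxcr2 is highest in the 3 Silica libraries, whereas the other 2 ratios order the groups by their means from Silica + ATL-III to Silica to Control, in opposite directions.

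Of the 6 genes for ligands of these receptors, 5 passed the filter. Silica lungs had 3 of the 5 called higher than Control lungs, namely Cxcl1, Cxcl2 and Cxcl5, all neutrophil-attracting chemokines. Cxcl2 had 3.45 ± 1.36 FPKM in Silica and 0.24 ± 0.0794 FPKM in Control (SD, n = 3 each; log2 fold change 3.95 ± 0.62). In Silica + ATL-III vs Silica 1 of the 5 was called higher and 2 were called lower. Cxcl5 had 1.22 ± 0.807 FPKM in Silica + ATL-III and 4.91 ± 1.99 FPKM in Silica (log2 fold change -1.98 ± 0.50, adjusted p = 0.016 by edgeR), a call lost without Silica + ATL-III 1 or 2. Cxcl15, the lung epithelial chemokine lungkine, had 628 ± 200 FPKM in Silica + ATL-III and 1363 ± 249.9 FPKM in Silica (-1.09 ± 0.22). Ppbp, a chemokine of platelets, was higher in Silica + ATL-III (1.79 ± 0.52, adjusted p = 0.030 by edgeR), a call lost without Silica 1, Silica 3, Silica + ATL-III 1 or Silica + ATL-III 2. In Silica + ATL-III vs Control Cxcl1 and Cxcl2 were called higher and Cxcl15 lower. The Cxcl15 call was lost without any 1 of the Control libraries, Silica 3, Silica + ATL-III 2 or Silica + ATL-III 3. The medians of the 5 were -0.29 in Silica + ATL-III vs Silica, 1.5 in Silica + ATL-III vs Control and 2.70 in Silica vs Control.

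Both formyl peptide receptor genes were higher in Silica + ATL-III. Fpr1 (ENSMUSG00000045551) had 40.5, 49.5 and 59.6 FPKM in Silica + ATL-III, 10.8, 19.1 and 19.1 FPKM in Silica and 14.5, 21.4 and 14.6 FPKM in Control. Fpr2 (ENSMUSG00000052270), whose product also binds annexin A1 and serum amyloid A, had 97.3, 106 and 157 FPKM in Silica + ATL-III, 18.9, 29.5 and 20.1 FPKM in Silica and 17.3, 27.2 and 14.4 FPKM in Control. For both, all Silica + ATL-III libraries lay above the rest, and Silica and Control overlapped. Fpr1 rose by 1.64 ± 0.22 in Silica + ATL-III vs Silica (edgeR adjusted p = 0.00057) and by 1.69 ± 0.22 vs Control (adjusted p = 0.00038). Fpr2 rose by 2.42 ± 0.25 vs Silica (adjusted p = 0.00016) and by 2.73 ± 0.26 vs Control (adjusted p = 4.3e-05). The changes in Silica vs Control were 0.05 ± 0.22 for Fpr1 (adjusted p = 0.90; -0.05 with library totals alone) and 0.31 ± 0.25 for Fpr2 (adjusted p = 0.40).

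Fpr1 over Fpr2 within a library had a log2 mean of -1.25 ± 0.152 in Silica + ATL-III, -0.50 ± 0.383 in Silica and -0.19 ± 0.189 in Control (SD, n = 3 each). Its value in Silica + ATL-III lay below both other groups with no overlap, by -0.75 vs Silica and -1.06 vs Control (exact permutation p = 0.1 each, the smallest possible, adjusted 0.15). Silica and Control overlapped (-0.31, exact permutation p = 0.3, adjusted 0.34). S100a8 over S100a9 had a log2 mean of -0.17 ± 0.147 in Silica + ATL-III, -0.46 ± 0.054 in Silica and -0.60 ± 0.099 in Control. It was higher in Silica + ATL-III with no overlap, by 0.30 vs Silica and 0.43 vs Control (exact permutation p = 0.1 each, the smallest possible, adjusted 0.15), and Silica and Control overlapped (0.13, exact permutation p = 0.2, adjusted 0.26).

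Of the other genes of the formyl receptor family, Fpr3, Fpr-rs3, Fpr-rs4, Fpr-rs6 and Fpr-rs7 had 0 counts in all 9 libraries. Of the 3 ligand genes tested, Saa3 and Camp were called higher in Silica + ATL-III vs Silica, Anxa1 and Saa3 in Silica vs Control, and all 3 in Silica + ATL-III vs Control. The medians of these 3 were 2.23 in Silica + ATL-III vs Silica, 3.82 in Silica + ATL-III vs Control and 0.85 in Silica vs Control. Saa3, an acute phase protein made in the lung, had 272 ± 83.7 FPKM in Silica + ATL-III, 58.4 ± 22.3 FPKM in Silica and 2.88 ± 3.17 FPKM in Control. It rose by 2.23 ± 0.53 in Silica + ATL-III vs Silica (edgeR adjusted p = 0.013; 0.061 without Silica 3) and by 4.45 ± 0.61 in Silica vs Control (adjusted p = 0.0013). Anxa1, encoding annexin A1, had 353 ± 80.2 FPKM in Silica + ATL-III, 387 ± 95.2 FPKM in Silica and 234 ± 0.267 FPKM in Control. It was called in both comparisons with Control, but not when any 1 of the Control libraries was left out.

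Trem1 (ENSMUSG00000042265), on chromosome 17, encodes a receptor that signals through the adaptor DAP12, the product of Tyrobp. It had 20.1, 24.2 and 18.4 FPKM in Silica + ATL-III, 3.38, 2.62 and 2.23 FPKM in Silica and 1.14, 6.09 and 1.26 FPKM in Control. The Silica + ATL-III libraries lay above all others, and Control 2 lay above the 3 Silica libraries. Trem1 rose by 2.94 ± 0.48 in Silica + ATL-III vs Silica (edgeR adjusted p = 0.0017) and by 3.01 ± 0.48 vs Control (adjusted p = 0.0015). Its change in Silica vs Control was 0.07 ± 0.49 (adjusted p = 0.94; -0.04 with library totals alone), and without Control 2 Trem1 was called higher (1.29, adjusted p = 0.0086).

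Of 9 further genes of the TREM family and its signalling, 6 were called higher in Silica + ATL-III vs Silica, 1 lower, and 9 were called higher vs Control. The medians were 1.22 and 2.12. Against Control, Silica lungs had 3 called higher, or 5 without Control 2, with a median of 0.68. Pglyrp1, a peptidoglycan-binding granule protein described as a ligand of TREM-1, had 28.7 ± 8.40 FPKM in Silica + ATL-III, 7.54 ± 1.08 FPKM in Silica and 4.28 ± 0.732 FPKM in Control (1.95 ± 0.21 vs Silica). Treml2, a TREM-like receptor, rose by 1.70 ± 0.28 in Silica + ATL-III vs Silica. Trem2, a receptor of macrophages, went the other way, with 2.13 ± 0.688 FPKM in Silica + ATL-III, 8.57 ± 4.02 FPKM in Silica and 0.513 ± 0.0777 FPKM in Control. It fell by 2.00 in Silica + ATL-III vs Silica (SE 0.34) and rose by 4.17 ± 0.40 in Silica vs Control. Tyrobp had 669 ± 196 FPKM in Silica + ATL-III, 437 ± 103 FPKM in Silica and 168 ± 79.7 FPKM in Control, and was called higher in both comparisons with Control (2.12 ± 0.31 for Silica + ATL-III and 1.49 ± 0.31 for Silica).

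Prok2 (ENSMUSG00000030069), on chromosome 6, encodes prokineticin 2, also called Bv8, a small secreted protein. It had 10.5, 10.3 and 9.95 FPKM in Silica + ATL-III (327, 330 and 315 counts), 0.09, 0.28 and 0 FPKM in Silica (3, 9 and 0 counts) and 0 counts in the 3 Control libraries. The Silica + ATL-III libraries lay close together and far above the rest. Prok2 was higher in Silica + ATL-III than in Silica by 6.38 ± 0.47 (edgeR adjusted p = 7.9e-05). It passed the filter through the Silica + ATL-III libraries alone and had to differ there, so this p-value adds no support. Against a floor of 3 counts over the Control group, it was at least 318-fold higher in Silica + ATL-III than in Control. This floor covers counting error only. Prok2 was not called in Silica vs Control (adjusted p = 0.058; at least 3.74-fold higher in Silica by the same floor), whereas DESeq2 and edgeR without Silica 3 called it (adjusted p = 0.022 by either), as did edgeR without a filter on low values (adjusted p = 0.00095). The genes of its receptors, Prokr1 and Prokr2, and of the related Prok1 were too low to be tested. Their summed level was 0.11 to 0.18 FPKM in Silica + ATL-III, 0.25 to 0.39 FPKM in Silica and 0.09 to 0.12 FPKM in Control libraries.

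Hdc (ENSMUSG00000027360), on chromosome 2, encodes histidine decarboxylase, the enzyme that makes histamine in mast cells, basophils and neutrophils. It had 25.8, 35.3 and 21.7 FPKM in Silica + ATL-III, 9.52, 9.25 and 10.1 FPKM in Silica and 9.85, 13.8 and 9.91 FPKM in Control. Silica + ATL-III lay above the other groups, which overlapped. Hdc had the smallest rise of the 9 called genes, 1.54 ± 0.18 in Silica + ATL-III vs Silica (edgeR adjusted p = 0.00025), and rose by 1.42 ± 0.18 vs Control (adjusted p = 0.00026). Its change in Silica vs Control was -0.11 ± 0.17 (adjusted p = 0.67). Of the 4 other histamine genes tested, Hrh2, a histamine receptor, was called higher in Silica + ATL-III vs Silica (2.18 ± 0.42, at 1.58 ± 0.130 FPKM in Silica + ATL-III and 0.357 ± 0.242 FPKM in Silica). Hrh2 passed the filter through the 3 Silica + ATL-III libraries alone, so like Prok2 it had to differ there. The histamine-degrading enzymes Aoc1 (-1.40 ± 0.23) and Hnmt (-0.44 ± 0.13) were called lower there. The Hnmt call was lost without Silica 1, Silica + ATL-III 1 or Silica + ATL-III 2. In Silica + ATL-III vs Control Hrh2 was called higher and Aoc1 lower, and in Silica vs Control Hnmt was called higher, though not without Control 1, Control 3 or Silica 1. The medians of the 4 were -0.26 in Silica + ATL-III vs Silica, 0.15 in Silica + ATL-III vs Control and 0.35 in Silica vs Control.

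Since Hdc is also a gene of mast cells and basophils, 12 of their markers were read beside it. Their summed level was 27.2 to 32.2 FPKM in Silica + ATL-III, 19.2 to 31.4 FPKM in Silica and 35.5 to 41.9 FPKM in Control libraries. The mast cell protease Cpa3 was at 0.773 ± 0.0252 FPKM in Silica + ATL-III, 3.82 ± 1.03 FPKM in Silica and 3.75 ± 0.416 FPKM in Control, lower in Silica + ATL-III than in either (-2.28 ± 0.25 and -2.15 ± 0.25). The tryptase gene Tpsab1 was at 0 in all Silica + ATL-III and Silica libraries and at 0, 0 and 0.03 FPKM in Control, too low in every group to tell them apart. The basophil protease gene Mcpt8 averaged 0.08 FPKM in Silica + ATL-III, 0.157 FPKM in Silica and 0.0633 FPKM in Control. Other markers too low to be tested also averaged less in Silica + ATL-III than in Silica. These were Mcpt4 (0.217 and 0.377 FPKM), Tpsb2 (0.04 and 0.12 FPKM), Fcer1a (0.16 and 0.737 FPKM) and Ms4a2 (0.2 and 0.367 FPKM). Prss34 went the other way (0.117 and 0.08 FPKM). Kit and Gata2 were called higher in Silica + ATL-III vs Silica. Kit lost its call without Silica 1, Silica 3, Silica + ATL-III 2 or Silica + ATL-III 3. Of the 5 markers tested the median was -0.07 in Silica + ATL-III vs Silica, -0.22 vs Control and -0.32 in Silica vs Control.

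Retnlg (ENSMUSG00000022651), on chromosome 16, encodes resistin-like gamma, a secreted protein known from mouse bone marrow and neutrophils. It had 3044, 3592 and 3541 FPKM in Silica + ATL-III, 56.3, 252 and 42.7 FPKM in Silica and 34.0, 218 and 33.4 FPKM in Control. By mean FPKM it was the 12th gene in Silica + ATL-III, the 368th in Silica and the 392nd in Control. All Silica + ATL-III libraries lay above the others, and Silica and Control overlapped, with Silica 2 and Control 2 highest. Retnlg was higher in Silica + ATL-III than in Silica by 4.90 ± 0.83 (edgeR adjusted p = 0.0021) and than in Control by 5.29 ± 0.85 (adjusted p = 0.0014). Its change in Silica vs Control was 0.38 ± 0.72 (adjusted p = 0.74), with -0.81 without Silica 2 (adjusted p = 0.39) and 1.87 without Control 2 (adjusted p = 0.081). Its relative Retnla, a secreted product of alternatively activated macrophages and airway epithelium, had 427 ± 95.5 FPKM in Silica + ATL-III, 2817 ± 1536 FPKM in Silica and 259 ± 12.2 FPKM in Control. Retnla was lower in Silica + ATL-III than in Silica (-2.72 ± 0.38) and higher in Silica than in Control (3.56 ± 0.40). Retn, the resistin gene of adipose tissue, was called lower in Silica vs Control (-1.56 ± 0.47, edgeR adjusted p = 0.041), a call lost without Control 3, Silica 1, Silica 3 or Silica + ATL-III 1. Retnlb was too low to be tested. Reads that near-identical copies share could move between genes of such families, and the sources used here do not say how such reads were counted.

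**Figure D3:**
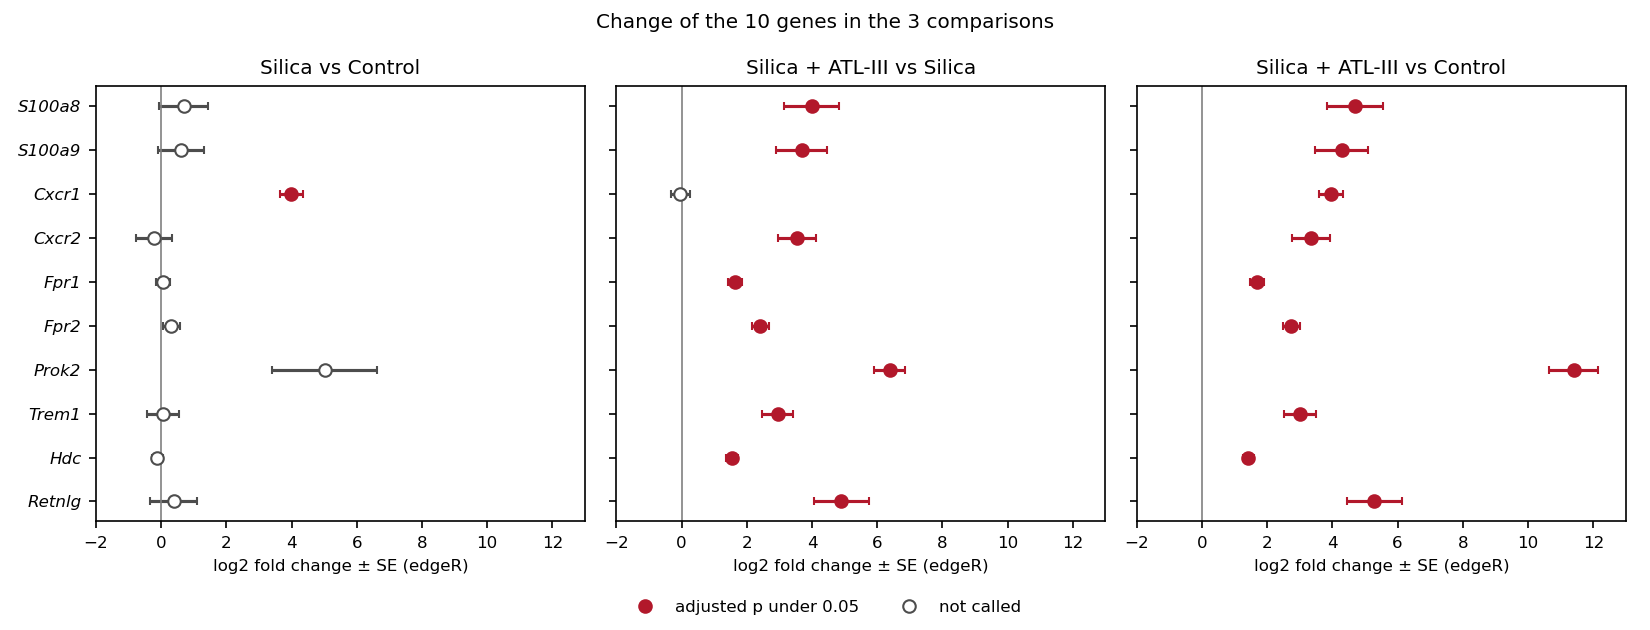
Log2 fold change ± SE of the 10 genes in the 3 comparisons, from edgeR's quasi-likelihood test; filled points have an adjusted p under 0.05 and open points do not. Cxcr1 is the 1 filled point in Silica vs Control and the 1 open point in Silica + ATL-III vs Silica. The point of Prok2 in both comparisons with Control, where Control has 0 counts, depends on the prior count and is no measure of size.

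No overlap between libraries, with the first group higher, was seen for 9 of the 10 genes in Silica + ATL-III vs Silica, 10 of 10 in Silica + ATL-III vs Control and 1 of 10 in Silica vs Control. Over all genes tested those shares were 15.5%, 12.0% and 14.4%. Prok2, which had to differ in Silica + ATL-III by its filter, is again among the 9 and the 10. The fold of the 9 genes called in Silica + ATL-III vs Silica was uneven. As a ratio of mean FPKM it ran from 2.87 for Hdc, 3.06 for Fpr1 and 5.25 for Fpr2 through 7.62 for Trem1, 11.5 for Cxcr2, 12.5 for S100a9 and 15.5 for S100a8 to 29.0 for Retnlg and 83.0 for Prok2. Neighbours in this order were not tested against each other, and the SEs of S100a8, S100a9 and Cxcr2 overlap. Single libraries moved the sizes. Without Silica 2 the log2 fold change vs Silica was 4.78 for S100a8, 4.47 for S100a9, 6.09 for Retnlg and 7.73 for Prok2, and without Silica 3 it was 5.80 for Prok2. Without Control 2 the log2 fold change in Silica + ATL-III vs Control was 6.32 for S100a8, 5.83 for S100a9, 4.58 for Cxcr2, 4.24 for Trem1 and 6.77 for Retnlg.

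Control 2 was the highest Control library for all 9 genes with counts there. It was 7.40 times the mean of the other 2 Control libraries for S100a8, 6.81 for S100a9, 6.45 for Retnlg, 5.13 for Cxcr2 and 5.08 for Trem1, and 2.55 for Cxcr1, 1.71 for Fpr2, 1.47 for Fpr1 and 1.39 for Hdc. Silica 2 was the highest Silica library for 6 of the 10 (S100a8, S100a9, Cxcr2, Fpr2, Prok2 and Retnlg). It was 5.09 times the mean of the other 2 Silica libraries for Retnlg, 3.36 for S100a8 and 3.35 for S100a9. The 6.22 for Prok2 rests on 9 counts in Silica 2 against 3 and 0. Silica 3 was farther from the group's median than Silica 2 for S100a8 (-1.55 on the log2 scale in Silica 3 and 1.17 in Silica 2) and S100a9 (-1.45 in Silica 3 and 1.19 in Silica 2). Cxcr1 went against this in Silica, where Silica 3 was highest. In Silica + ATL-III the libraries were closer, with the highest over the lowest at 1.05 for Prok2 to 1.79 for S100a8.

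The summed level of 26 other neutrophil genes was 1844, 2261 and 1864 FPKM in Silica + ATL-III, 494.7, 417 and 392 FPKM in Silica and 161, 428 and 171 FPKM in Control, so Control 2 stood out there as well, while Silica 2 did not. With Control 2 and Silica 2 both left out, a choice made after seeing the data, 5 of the 10 genes were called higher in Silica than in Control, against 9.36% of all genes tested in that fit (S100a8 by 1.54, S100a9 by 1.36, Trem1 by 1.34, Retnlg by 0.67 and Cxcr1). Under that choice 9 of 10 were called higher in Silica + ATL-III vs Silica, against 11.4% of all genes. What sets Control 2 and Silica 2 apart was not tested, and the labels give no batch.

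**Figure D4:**
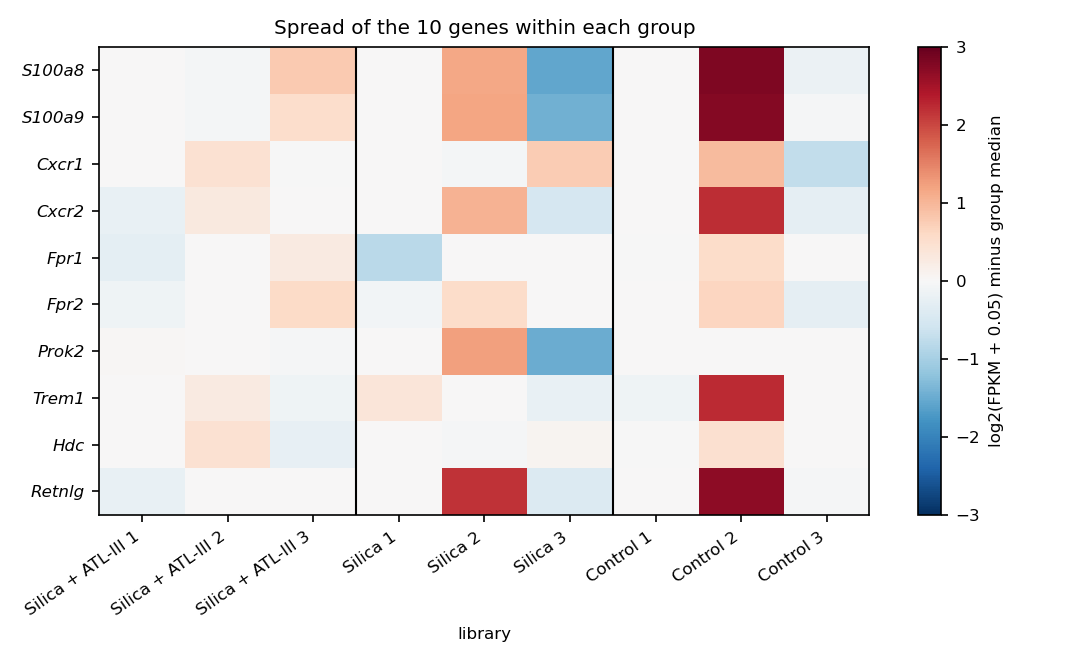
Deviation of each library from the median of its own group for the 10 genes (rows), as log2(FPKM + 0.05), with the 3 libraries of Silica + ATL-III, Silica and Control as columns; red is above and blue below the group median. The column of Control 2 is red for all genes with counts there and strongest for S100a8, S100a9 and Retnlg, and that of Silica 2 is red for 6 genes.

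Other genes of neutrophils were read in lists. Of 26 genes of neutrophil identity and adhesion, 17 were called higher in Silica + ATL-III vs Silica (median 1.72), 23 in Silica + ATL-III vs Control (median 2.67) and 12 in Silica vs Control (median 0.80). EdgeR called 0 lower in each comparison (at an unadjusted p under 0.05, 1 in Silica + ATL-III vs Silica, where DESeq2 called 1 and limma 0, and 0 in the others). Leaving out single libraries, the first count ran from 16 to 20 and the second from 21 to 25. The third ran from 6 to 16, with 7 without Control 1, 6 without Control 3 and 7 without Silica 1. Mmp8, neutrophil collagenase, had 597 ± 145 FPKM in Silica + ATL-III, 9.27 ± 5.38 FPKM in Silica and 8.75 ± 7.62 FPKM in Control. Ltb4r1, a receptor of leukotriene B4, rose by 3.33 ± 0.36 in Silica + ATL-III vs Silica, and Alox5ap, which helps make leukotrienes, by 2.03 ± 0.16.

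Of 14 genes of late granules and late maturation, 11 were called higher and 1 lower in Silica + ATL-III vs Silica (median 3.33), 13 higher vs Control (median 3.79) and 6 higher in Silica vs Control (median 0.91). Of those 6, Cybb, Lyz2 and Chil3 are also genes of macrophages. Ngp, a granule protein, had 101 ± 19.2 FPKM in Silica + ATL-III, 3.06 ± 3.10 FPKM in Silica and 0.607 ± 0.455 FPKM in Control. The 1 gene called lower was Cybb, a subunit of the phagocyte oxidase that macrophages share (-1.20 ± 0.19). Stfa2 and Stfa3, cysteine protease inhibitors of a family of near-identical copies, also rose, by 5.77 ± 0.53 and 5.76 ± 0.43, with uncertain counts. The 8 genes found in the table that mark neutrophil precursors in bone marrow, those of early granules among them, were all too low to be tested. Their summed level was 2.81, 4.41 and 9.42 FPKM in Silica + ATL-III, 0.79, 0.79 and 0.35 FPKM in Silica and 0.71, 1.10 and 0.61 FPKM in Control. The highest of them in Silica + ATL-III were Prtn3, at 1.35 ± 1.11 FPKM in Silica + ATL-III and 0.133 ± 0.174 FPKM in Silica, and Ctsg, at 1.33 ± 1.04 FPKM in Silica + ATL-III and 0.0567 ± 0.00577 FPKM in Silica. Mpo was at 0.197 ± 0.0635 FPKM in Silica + ATL-III and 0.0133 ± 0.0115 FPKM in Silica.

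Of 12 tested genes of signalling and transcription in neutrophil maturation, 5 were called higher and 1 lower in Silica + ATL-III vs Silica (median -0.00166), with 3 lower without Silica 2. In Silica + ATL-III vs Control 5 were called higher (median 0.40), or 3 without Control 1 or Control 3 (and 2 lower without Silica 2), and in Silica vs Control 3 were (median 0.20), or 1 without Control 3 and 5 without Silica 2. Socs3, a feedback inhibitor of cytokine signalling, rose by 1.40 ± 0.19 and Spi1, which encodes PU.1, by 1.34 ± 0.20 in Silica + ATL-III vs Silica. Cxcl12, the chemokine that holds neutrophils in marrow, was lower there (-1.50 ± 0.24).

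**Figure D5:**
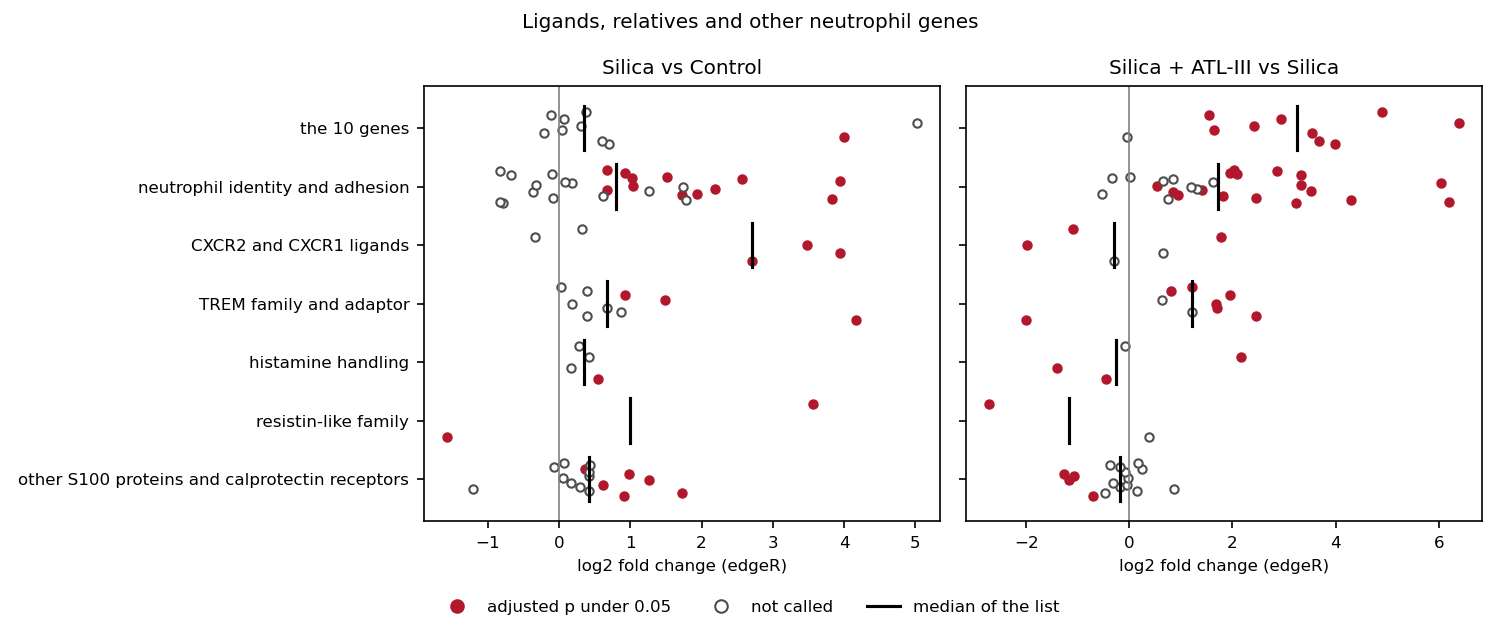
Log2 fold changes from edgeR of the 10 genes and of their ligands, relatives and other neutrophil genes in Silica vs Control and in Silica + ATL-III vs Silica, 1 point per tested gene (filled where the adjusted p is under 0.05) with a bar at the list's median. The medians of the 10 genes lie at 0.35 and 3.25, and those of the other S100 proteins and calprotectin receptors at 0.42 and -0.18.

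Markers of other cells of the lung moved as well, and their part in the results above was not tested. Of 10 monocyte markers, 7 were called higher and 1 lower in Silica + ATL-III vs Silica (4 higher without Silica 1), with a summed level of 321 to 518 FPKM in Silica + ATL-III, 169 to 236 FPKM in Silica and 171 to 189 FPKM in Control. F13a1, a clotting factor subunit of monocytes, rose by 2.37 ± 0.21, Vcan by 2.10 ± 0.23 and Ly6c2 by 1.82 ± 0.26. Of 12 macrophage markers, 1 was called higher and 3 lower in Silica + ATL-III vs Silica (1 lower without Silica 1, Silica 3, Silica + ATL-III 2 or Silica + ATL-III 3), with summed levels of 1467 to 2420 FPKM in Silica + ATL-III, 1299 to 2037 FPKM in Silica and 638 to 776 FPKM in Control. Chil3, which is also in the list of late granules and late maturation, made up most of each sum. It had 1549 ± 564 FPKM in Silica + ATL-III, 1273 ± 379 FPKM in Silica and 569 ± 82.4 FPKM in Control. The sums therefore say little of the other macrophage markers. No marker of either list was at 0 in any of the 9 libraries. In Silica vs Control, 9 macrophage markers were called higher and 1 lower.

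The genes whose profile over the 9 libraries was most like the average of the 10 were Cd300lf, Tarm1, Il1f9, Olfm4, Slfn1, Mmp9, Mrgpra2b and Trem3. Likeness was the root mean square difference of log2(FPKM + 0.5) values centred per gene, and it ran from 0.237 for Cd300lf to 0.381 for Trem3. Cd300lf, an inhibitory receptor of myeloid cells, had 55.9 ± 4.76 FPKM in Silica + ATL-III, 7.55 ± 1.17 FPKM in Silica and 6.16 ± 4.15 FPKM in Control. Tarm1, an activating receptor of myeloid cells, had 12.3 ± 2.55 FPKM in Silica + ATL-III, 0.797 ± 0.303 FPKM in Silica and 0.733 ± 0.906 FPKM in Control. By the same measure, the 10 genes themselves lay 0.373 (Cxcr2) and 0.374 (Trem1) to 1.41 (Cxcr1) from their average, with Retnlg at 1.20, Hdc at 1.04, S100a8 at 0.936, Fpr1 at 0.916, S100a9 at 0.768, Prok2 at 0.663 and Fpr2 at 0.469. These distances are a description over 9 libraries that share their groups.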

How the data were processed

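Total RNA of lung tissue was enriched for poly(A) RNA and sequenced, per the labels' protocols. The deposited table holds raw whole-number read counts for each gene and library. Beside them stand FPKM values, which are the authors' own and are named so in the table's header, per the file headers. FPKM recomputed here from counts, exonic length and column totals matched all deposited values (100%) within 0.006. The submitters' processing notes name cutadapt 1.9.1, HISAT2 2.0.1, HTSeq 0.6.1 and build mm10, with no roles. The positions in the table do not match that build, so only chromosomes and distances are printed from them. The annotation release and the use of strand in counting are not stated there, so a gene and an antisense partner cannot be told apart. Of the 55359 genes, 1438 have no symbol. The table's column letters were matched to groups by name (C for Control, S for Silica, A for Silica + ATL-III).

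Counts were fitted with edgeR 4.0.16 (R 4.3.3; TMM factors, quasi-likelihood test) in 1 model of 3 group means over all 9 libraries, with 6 residual degrees of freedom and no covariate. Genes at 1 FPKM or more in at least 3 libraries were tested (15459), with Benjamini-Hochberg adjustment over all of them. SEs were taken as |log2 fold change| over the root of F. Alternatives were other scalings and filters, DESeq2 1.42.0, limma 3.58.1 on log2(FPKM + 0.5) and log2(FPKM + 0.1), a fit of the 6 libraries compared, a replicate block and each library left out. Ratios within libraries were compared by exact permutation tests, two-sided. The scripts were tested on simulated data.

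The 10 genes and the 19 gene lists were chosen with earlier results of these data known, and 1 of the lists is not reported here. Genes named besides the 10 are at most the 3 of each list with the smallest p in Silica + ATL-III vs Silica, those needed as a ligand, receptor, relative or partner, and the 8 whose profile is most like the average. S100b, Cybb, Lyz2, Chil3, Prtn3, Ctsg, Mpo, Tpsab1, Mcpt8, Prg2, Epx, Ccr3, Il5ra, Siglecf and the genes most like Cxcr1 and Prok2 were named after their values were seen. So were Mcpt4, Tpsb2, Fcer1a, Ms4a2, Prss34 and Hbb-bs. With 3 libraries per group at this depth, low counts are imprecise, and floors cover counting error only. Replicates differed beyond sampling noise, so none is a copy of another.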

Additional observations from a re-analysis of the deposited data

How the results depend on the processing

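The 9 genes called in Silica + ATL-III vs Silica and the 10 called in Silica + ATL-III vs Control kept direction and call in every alternative that gave an adjusted p, 187 for each comparison over the 10 genes. DESeq2 gave none for S100a8, S100a9 and Retnlg, so it called 6 of 7 in Silica + ATL-III vs Silica and 7 of 7 in Silica + ATL-III vs Control. Calls in Silica vs Control were unstable. Against 1 of the 10 genes, edgeR without a filter on low values called 4, DESeq2 2, and edgeR with Control 2 and Silica 2 left out 5. With single libraries left out the count ran from 1 to 4 (4 without Control 2 and 2 without Silica 3), while it was 9 in Silica + ATL-III vs Silica and 10 in Silica + ATL-III vs Control each time. The cause was not tested.

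Signs that turned all belong to changes that were not called. In Silica vs Control, Fpr1 was -0.047 with library totals and -0.0676 and -0.0701 with limma at pseudocounts of 0.5 and 0.1, Trem1 was -0.0427 with library totals, Cxcr2 was 0.0115 with limma at a pseudocount of 0.1 and 0.50 with Control 2 and Silica 2 left out, and Hdc was 0.10 in that last fit. With single libraries left out, values ran from -0.0672 to 0.27 for Fpr1, -0.31 to 1.29 for Trem1, -0.81 to 1.87 for Retnlg, -0.73 to 1.03 for Cxcr2, -0.19 to 0.0553 for Hdc, -0.0889 to 2.33 for S100a8 and -0.18 to 2.15 for S100a9. Cxcr1 in Silica + ATL-III vs Silica ran from -0.20 to 0.27. The log2 ratio of Cxcr1 to Cxcr2 in Silica + ATL-III vs Control was -0.31 with 0.5 FPKM added and ran from -0.10 to 0.54 with single libraries left out.

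Over all genes, leaving out single libraries gave 862 to 3944 calls in Silica vs Control (main value 2615), 1924 to 3877 in Silica + ATL-III vs Silica (3279) and 1474 to 2864 in Silica + ATL-III vs Control (2451). Library totals moved the median gene by -0.10, -0.02 and -0.12 in those comparisons. Deviations of same-numbered samples from their group means had r from -0.13 to 0.12, and those of differently numbered samples from -0.136 to 0.126. Same-numbered Control and Silica samples had positive values (0.0904, 0.12 and 0.0897). Those with a Silica + ATL-III sample were negative. Whether the numbers pair samples cannot be told from such small values. With the sample number as a replicate block edgeR called 2120, 2822 and 2109 genes and 1, 9 and 10 of the 10 genes, and the Cxcr2 change in Silica vs Control was 0.0105.

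With 3 libraries a group the ratio tests cannot reach a p under 0.1, and low counts limit Cxcr1 in Control and Prok2 in Silica.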

Other observations

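The profile of Cxcr1 was farthest of the 10 from their average, and the genes most like it were looked up after its values were seen. They were AA467197 (root mean square difference 0.424), Cd177 (0.482), Ccl9 (0.628), Lcn2 (0.644) and Cxcl2 (0.671) over the 9 libraries. Cd177, a surface protein of neutrophils, had 13.4 ± 3.73 FPKM in Silica + ATL-III, 8.09 ± 3.25 FPKM in Silica and 0.607 ± 0.14 FPKM in Control (SD, n = 3 each). It rose by 3.84 ± 0.38 in Silica vs Control, and its change in Silica + ATL-III vs Silica was 0.74 ± 0.29 (edgeR adjusted p = 0.092). Lcn2, an iron-sequestering protein of neutrophil granules and of lung epithelium, had 504 ± 191 FPKM in Silica + ATL-III, 290 ± 62.8 FPKM in Silica and 40.6 ± 10.9 FPKM in Control. Ccl9, a chemokine of macrophages, had 63.6 ± 15.7 FPKM in Silica + ATL-III, 125 ± 37.9 FPKM in Silica and 12.1 ± 1.44 FPKM in Control. The genes most like Prok2 were Soat2 (0.56), Asprv1 (0.563) and Stfa3 (0.564). Soat2, a cholesterol esterifying enzyme, had 12.8 ± 0.946 FPKM in Silica + ATL-III, 1.20 ± 1.17 FPKM in Silica and 0.733 ± 0.27 FPKM in Control.

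Of 10 tested red cell and platelet markers, 4 were called higher in Silica + ATL-III vs Silica (2 without Silica 1, Silica 3 or Silica + ATL-III 2). Vs Control 2 were, or 1 without Control 1, Control 2 or Silica + ATL-III 2 and 4 without Control 3 or Silica 2. In Silica vs Control edgeR called 0 (0 at an unadjusted p under 0.05, and 0 by DESeq2 and by limma), or 3 without Silica + ATL-III 1. All 4 called in Silica + ATL-III vs Silica were platelet genes (Pf4, Ppbp, Gp9 and Itga2b), and no red cell gene was called there. The platelet integrin Itga2b rose by 1.63 ± 0.32 in Silica + ATL-III vs Silica. The summed level of that list was 1389, 6021 and 5755 FPKM in Silica + ATL-III, 5038 to 8678 FPKM in Silica and 5206 to 6805 FPKM in Control. Hbb-bs, a haemoglobin gene, made up most of each sum, so the sums say little of the platelet genes. Of 10 lung tissue markers, 2 were called higher in each comparison, with 1 in Silica vs Control without any 1 of the Control libraries, Silica 1 or Silica 3, and 1 lower in Silica + ATL-III vs Control without Silica + ATL-III 2. The eosinophil list had 1 of 4 tested genes called lower in Silica + ATL-III vs Silica (Ear6), 1 higher (Ear6) and 1 lower (Ear1) vs Control, and 1 higher in Silica vs Control (Ear6). It had 2 called lower in Silica + ATL-III vs Silica without Silica + ATL-III 3, 0 lower vs Control without Control 1 or Silica + ATL-III 1, and in Silica vs Control 2 higher without Silica 2 and 1 lower without Silica 3. Prg2, Epx, Ccr3 and Il5ra of that list were too low to be tested. With all libraries in, its calls were thus of Ear genes alone, and whether eosinophils were their source was not tested. Siglecf, which was tested, is also in the macrophage list. By edgeR 0 of 3 tested T and NK cell markers were called in any comparison. At an unadjusted p under 0.05, 1 was higher in Silica vs Control, where DESeq2 also called 1, and 1 was lower in Silica + ATL-III vs Silica, where DESeq2 and limma called 0. Without Silica + ATL-III 3, edgeR called 2 lower there.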
